A study of Homo sapiens with 6 samples.

Results

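The genes described here encode enzymes and regulators of sterol and fatty acid synthesis. The set lists 33 genes by name, and a member was measured by the probe set of highest mean among those annotated with its symbol and no other. Of the 33, 31 had a value, among 18404 genes measured in all. HSD17B7, a ketosteroid reductase gene of late sterol synthesis, has 1 probe set, which also carries another symbol, so no value was given to it. FDFT1, the squalene synthase gene, was not analysed here.

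Total RNA came from PrEC cells, a prostate epithelial line that is normal in origin and was immortalized, and each of 6 samples was hybridised to 1 array. The line carried either a hairpin against PKCλ/ι, an atypical protein kinase C (shPKCi, 3 samples), or the hairpin named shNT (3 samples). All cells grew in prostate epithelial growth medium without further treatment and were collected 48 hours after plating. Whether each line was a clone or a pool, and how many hairpins were used, was not given in the sources used here. The series calls the samples biological replicates. In whole-culture RNA, fewer cells of a kind and less RNA per cell cannot be told apart.

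Sterols and fatty acids are both built from cytosolic acetyl-CoA. In the mevalonate steps it is condensed and reduced to isoprenoid units, which the late sterol steps join to squalene, close into a ring and trim to cholesterol. Acetyl-CoA carboxylase and fatty acid synthase make palmitate, which elongases and desaturases modify. Sterol regulatory element-binding proteins (SREBPs), encoded by SREBF1 and SREBF2, are membrane-bound transcription factors. SCAP escorts them out of the endoplasmic reticulum when sterol is low, INSIG proteins retain them when it is high, and the freed factors switch on most genes of both pathways.

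PRKCI, the gene that encodes PKCλ/ι, fell by 1.05 on the log2 scale in the shPKCi arrays (limma adjusted p = 0.000279). PRKCZ, the other atypical protein kinase C gene, also fell, by 0.54 (adjusted p = 0.00269), and kept its call without any 1 array. The epithelial keratin gene KRT5 lay at the 99.6th percentile of signal over all genes and EPCAM at the 99.5th. Of the adipocyte markers 5 of 5 were measured, all at or below the 38.9th percentile, and their summed intensity was 112 to 116 in shPKCi arrays, against 118 to 164 in shNT arrays. Summed intensity of 5 hepatocyte markers was 136 to 141 in shPKCi arrays and 146 to 152 in shNT arrays. Summed intensity of 6 fibroblast markers was 202 to 216 in shPKCi arrays, against 235 to 303 in shNT arrays. The sums were 76.1 to 81.4 in shPKCi and 79.0 to 92.7 in shNT arrays for 4 endothelial markers, and 288 to 301 in shPKCi and 316 to 338 in shNT arrays for 4 blood markers. Those of 5 basal prostate markers were 8845 to 9045 in shPKCi and 9614 to 10585 in shNT arrays, and those of 4 luminal markers 2572 to 2664 in shPKCi and 1844 to 2523 in shNT arrays. The 3 general epithelial markers gave 7710.2 to 8319 in shPKCi and 7679 to 9481 in shNT arrays. Within the epithelial lists EPCAM rose by 0.60 (adjusted p = 0.0128), while the desmoplakin gene DSP fell by 0.75 (0.000993), the P-cadherin gene CDH3 by 0.62 (0.00146), KRT14 by 0.33 (0.0356), KRT15 by 0.47 (0.0407) and the luminal phosphatase gene ACP3 by 1.02 (0.00127). The calls of DSP, CDH3 and ACP3 were kept without any 1 array, that of EPCAM was lost without shPKCi replicate 1 (0.0585) or 2 (0.0521), and those of KRT14 and KRT15 were lost without most single arrays (up to 0.142 and 0.16 without shPKCi replicate 2). ACP3 was dim, at the 31.4th percentile of signal. The brighter luminal genes KRT8 and KRT18 gave log2 differences of 0.34 (adjusted p = 0.0624) and 0.27 (0.218) that did not pass. KLK3, also dim, gave -0.26 (0.499). Among the basal and general epithelial markers, KRT5 gave -0.27 (0.0682), CDH1 -0.29 (0.0574) and ITGA6 0.06 (0.786), which did not pass. In the other lists LEP fell by 0.56 (0.0213), COL1A1 by 0.49 (0.0244) and KDR by 0.43 (0.0193), and CD3D rose by 0.34 (0.0324). Each of these last calls was lost in at least 2 of the fits that left out 1 array. The part of these markers in the results was not tested. No marker is at 0, since array signal includes background. The array of shNT replicate 2 stood apart, with correlations to the others from 0.975 to 0.985 over all probe sets.

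Of the 31 measured members, 13 rose in shPKCi, 1 fell and 17 did not pass (limma, Benjamini-Hochberg adjusted p under 0.05 over all genes). Over all genes, 9.55% rose and 8.95% fell. With each array centred on its median, 15 members rose and 1 fell, and over all genes 2170 rose and 1321 fell, against 1758 and 1648 without centring. At an adjusted p under 0.01, 8 members rose, against 4.73% of all genes. The log2 fold change, or log2 difference, is the mean log2 intensity of shPKCi minus that of shNT. Its median over the members was 0.31, against -0.02 for all genes. The arrays of the groups did not overlap in 18 members with shPKCi higher and in 3 with shPKCi lower, where 18% and 17.8% of all genes separated in those directions. Most members were bright: 28 lay above the median signal, and the 13 that rose and the 1 that fell were among them. Of all genes above the median signal, 16.6% rose and 13.3% fell, with a median of 0.02. Above the 80th percentile of signal, 11 of 19 members rose and none fell, with a median of 0.37. Of all 3681 genes above that percentile, 763 rose and 483 fell, with a median of 0.09. After cyclic loess between arrays, 11 members rose and 1 fell, with a median of 0.23, and over all genes 1735 rose and 1858 fell. Leaving out 1 array at a time gave between 9 and 13 members that rose, and 13 without shNT replicate 2. The count that fell was 2 without shNT replicate 3 and 1 without any other array. Each count and median of the members stands beside those of all genes as a description, since the genes were chosen with results of these arrays known.

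**Figure D1:**
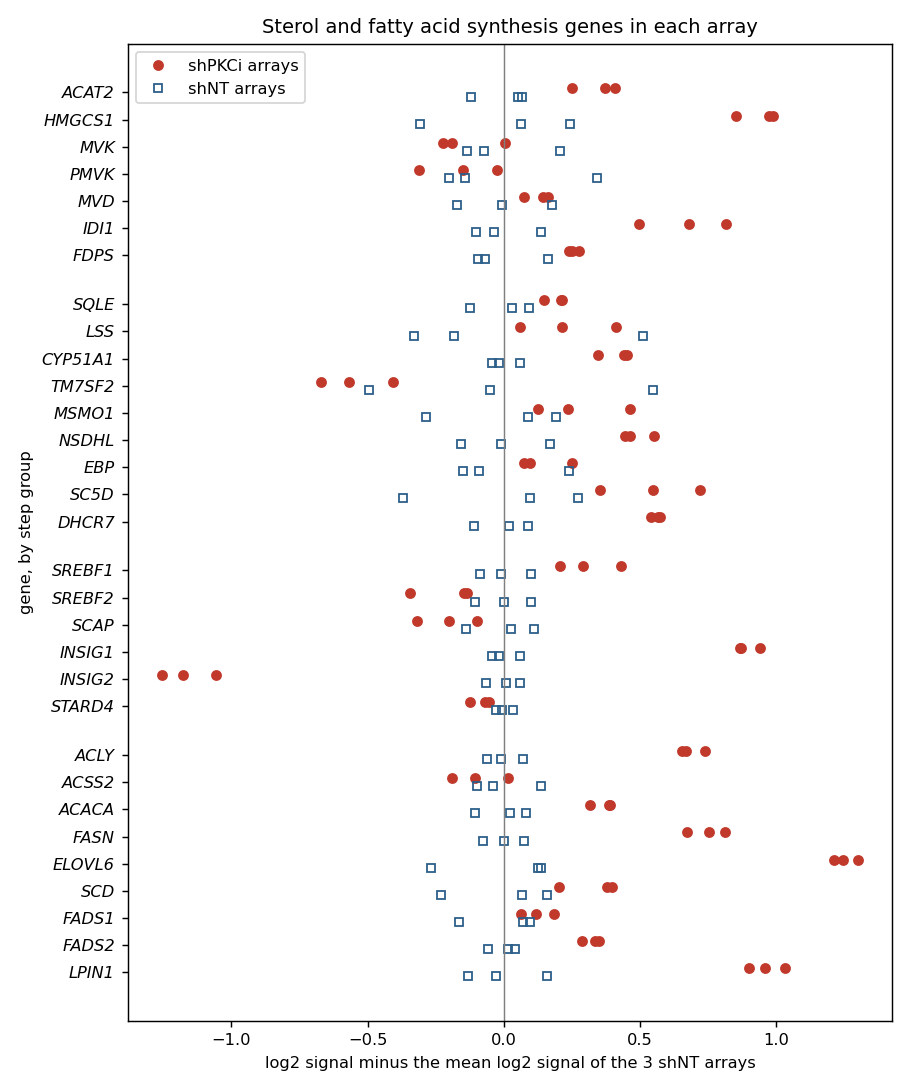
Log2 signal of each measured member in each array, relative to the mean of the 3 shNT arrays (x axis), with genes on the y axis in the order of their steps. Filled red circles are the 3 shPKCi arrays and open blue squares the 3 shNT arrays. ELOVL6, LPIN1, HMGCS1 and INSIG1 lie farthest to the right in shPKCi, and INSIG2 alone lies beyond 1 log2 unit to the left.

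In the mevalonate steps, 3 of 7 genes rose and none fell, beside 9.55% and 8.95% of all genes. In each fit that left out 1 array, 2 rose. The group is bright, with a median at the 95.3th percentile of signal. Of all 3681 genes above the 80th percentile, 763 rose and 483 fell. The median log2 fold change of the group was 0.26, or 0.16 after cyclic loess between arrays. HMGCS1, which encodes the synthase that makes HMG-CoA, had intensities of 2296, 2273 and 2093 in shPKCi arrays, against 1370.2, 934 and 1210.3 in shNT arrays. Every shPKCi array lay above every shNT array, and shNT replicate 2 was the lowest of its group. HMGCS1 rose by 0.94 (SE 0.14, adjusted p = 0.00157), a fold of 1.92, and by 0.78 without shNT replicate 2. IDI1, the isomerase gene that supplies the reactive isoprenoid unit, had intensities of 1587, 1443 and 1272 in shPKCi arrays, against 879, 839.7 and 992 in shNT arrays. The groups of IDI1 did not overlap, and the gene rose by 0.66 (SE 0.12, adjusted p = 0.00352).

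ACAT2, the cytosolic thiolase gene of the first condensation, rose by 0.35 (adjusted p = 0.0404), and its call was lost without any single array (adjusted p from 0.0545 without shNT replicate 2 to 0.148 without shPKCi replicate 1). FDPS, the farnesyl diphosphate synthase gene, had 1108, 1115 and 1137 in shPKCi arrays, against 1048, 895 and 879 in shNT arrays, a log2 difference of 0.26 that did not pass (adjusted p = 0.122). The 3 genes of the phosphorylation and decarboxylation steps between HMGCS1 and IDI1 did not pass. The log2 fold change was -0.13 for the mevalonate kinase gene MVK, -0.16 for the phosphomevalonate kinase gene PMVK and 0.13 for the decarboxylase gene MVD. Their signals were the dimmest of the group, at the 35.3th, 39.7th and 61.2th percentiles of all genes, and the groups of each overlapped. These small differences varied with the arrays used, and without shNT replicate 2 they were -0.03 for MVK, 0.0086 for PMVK, with its sign turned, and 0.22 for MVD. HMGCS1, IDI1, ACAT2 and FDPS lay above the 95th percentile.

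In the late sterol steps, 3 of 9 measured genes rose and none fell, beside 9.55% and 8.95% of all genes. With 1 array left out, 2 to 4 rose. This group is also bright, with a median at the 87.3th percentile of signal. Above the 80th percentile, 763 of all 3681 genes rose and 483 fell. The median log2 fold change of the group was 0.28. DHCR7, which encodes the reductase of the last step to cholesterol in one branch, had intensities of 408, 417 and 415 in shPKCi arrays, against 298, 259.8 and 284 in shNT arrays. Its groups were far apart for their spread, at 413 ± 4.77 in shPKCi and 280.5 ± 19.3 in shNT (SD, n = 3 each). DHCR7 rose by 0.56 (SE 0.10, adjusted p = 0.00311), a fold of 1.48.

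The demethylation steps gave the other rises. CYP51A1, the lanosterol demethylase gene, rose by 0.41 (adjusted p = 0.0124), but its adjusted p was 0.0559 in the fit that left out shPKCi replicate 1 and 0.0651 in the one that left out shPKCi replicate 2. A second, dimmer probe set of CYP51A1 gave a log2 difference of 0.99 (SE 0.32, adjusted p = 0.0674 over all probe sets), and the mean of both rose by 0.70. NSDHL, the sterol decarboxylase gene, rose by 0.49 (adjusted p = 0.0126), and its adjusted p was 0.053 without shPKCi replicate 3. MSMO1, which encodes the methyl oxidase that acts with NSDHL, gave a log2 difference of 0.28 that did not pass (adjusted p = 0.241), and 0.13 without shNT replicate 2.

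Of the remaining late genes, SC5D lay on the threshold. This sterol desaturase gene had intensities of 627, 556 and 486 in shPKCi arrays, against 407, 294 and 459 in shNT arrays. The groups did not overlap, with a log2 difference of 0.54 (SE 0.17, adjusted p = 0.0502). SC5D passed in 8 of 15 alternative fits, among them that without shNT replicate 3 (log2 fold change 0.68, adjusted p = 0.031). Without shNT replicate 2, the lowest array, its log2 fold change was 0.36 and did not pass (adjusted p = 0.0766). SQLE, the squalene epoxidase gene, gave a log2 difference of 0.19 (adjusted p = 0.235), and its groups did not overlap. The isomerase gene EBP gave a log2 difference of 0.14 (adjusted p = 0.513).

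LSS and TM7SF2 varied most among the shNT arrays. LSS, the lanosterol synthase gene, had intensities of 82.4, 91.8 and 105 in shPKCi arrays, against 69.6, 113 and 62.8 in shNT arrays. Its shNT replicate 2 was above all other arrays, and its log2 fold change was 0.23 with that array (adjusted p = 0.516) and 0.49 without it (adjusted p = 0.021). TM7SF2, a sterol reductase gene, had intensities of 49.3, 55.1 and 45.9 in shPKCi arrays, against 70.5, 107 and 51.8 in shNT arrays. The groups of TM7SF2 overlapped, and its log2 fold change of -0.55 (SE 0.22) did not pass (adjusted p = 0.125). Without shNT replicate 2, the highest array, it was -0.27 (adjusted p = 0.227), and without shNT replicate 3 it was -0.80 (adjusted p = 0.0211).

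**Figure D2:**
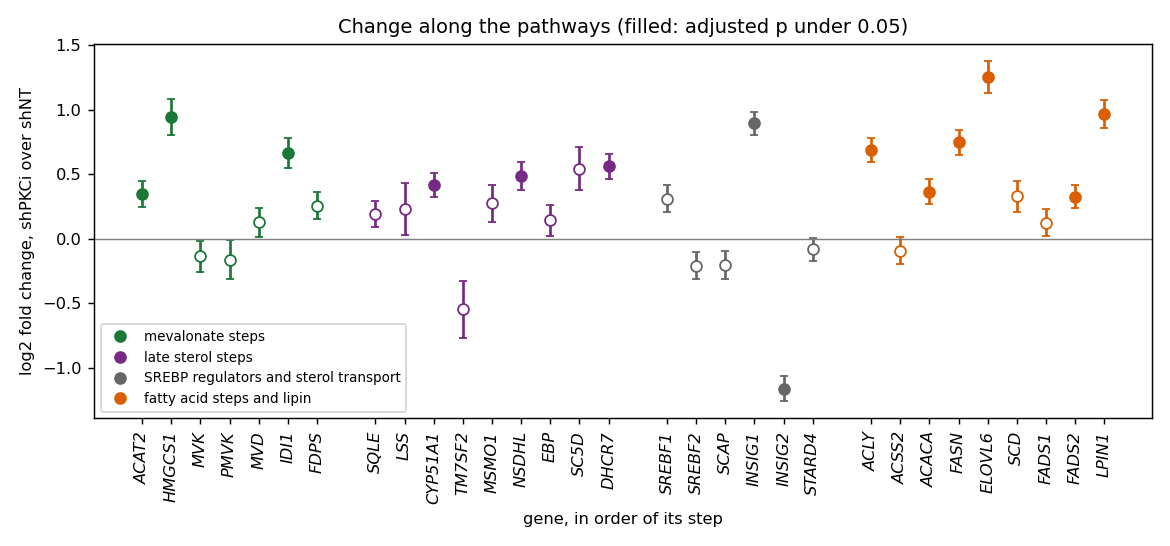
Log2 fold change of shPKCi over shNT (y axis) for each measured member in pathway order (x axis), with error bars of 1 SE. Filled points passed at an adjusted p under 0.05, and colours mark the 4 step groups. Filled points are above 0 in every group, and INSIG2, at -1.16, is the 1 filled point below 0.

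In the fatty acid steps, with the lipin gene, 6 of 9 genes rose and none fell, beside 9.55% and 8.95% of all genes. With 1 array left out, 4 to 6 rose. The median signal of the group lay at the 90.1th percentile. Above the 80th percentile, 763 of all 3681 genes rose and 483 fell. The median log2 fold change of the group was 0.37. After cyclic loess between arrays, 4 rose and the median was 0.28. ELOVL6, which encodes the elongase that acts on palmitate, had intensities of 705, 678 and 663 in shPKCi arrays, against 313, 238 and 315 in shNT arrays. The lowest shPKCi array was over the highest shNT array by more than the range of either group. ELOVL6 rose by 1.25 (SE 0.12, adjusted p = 0.000155), a fold of 2.38 and the largest rise among the 31 measured members. Without shNT replicate 2, the lowest array, it rose by 1.12.

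ACLY, ACACA and FASN, whose enzymes lead from citrate to palmitate, all rose. ACLY, the ATP citrate lyase gene, whose enzyme supplies cytosolic acetyl-CoA, had intensities of 1398, 1465 and 1384 in shPKCi arrays, against 842, 922 and 872 in shNT arrays. It rose by 0.69 (SE 0.09, adjusted p = 0.000874). FASN, the fatty acid synthase gene, had intensities of 228, 241 and 251 in shPKCi arrays, against 143, 135 and 150.5 in shNT arrays. FASN rose by 0.75 (SE 0.10, adjusted p = 0.000679), and in neither gene did the groups overlap. ACACA, the acetyl-CoA carboxylase gene whose enzyme acts between them, rose by 0.37 (adjusted p = 0.0258). Its call was kept without shNT replicate 2 and lost without each of the other 5 arrays (adjusted p from 0.0602 without shPKCi replicate 3 to 0.104 without shPKCi replicate 2).

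LPIN1 encodes lipin 1, a phosphatidate phosphatase of glycerolipid synthesis. LPIN1 had intensities of 341, 356 and 374 in shPKCi arrays, against 204, 167 and 179 in shNT arrays, with no overlap. It rose by 0.96 (SE 0.11, adjusted p = 0.000312), a fold of 1.95.

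The desaturase genes moved less than ELOVL6. FADS2, the delta-6 desaturase gene, rose by 0.32 (adjusted p = 0.0331), and its call was kept without shNT replicate 2 and lost without each of the other 5 arrays (adjusted p from 0.065 without shNT replicate 3 to 0.131 without shPKCi replicate 2). FADS1, the delta-5 desaturase gene, gave a log2 difference of 0.12 (adjusted p = 0.504). SCD, the stearoyl-CoA desaturase gene, had intensities of 3036, 3076 and 2684 in shPKCi arrays, against 2447, 1990.1 and 2607 in shNT arrays. Those groups did not overlap, and the log2 fold change of 0.33 did not pass (adjusted p = 0.101). It was 0.21 without shNT replicate 2, the lowest array. ACSS2, which encodes the enzyme that makes acetyl-CoA from acetate, gave a log2 difference of -0.09 (adjusted p = 0.637), or -0.02 without shNT replicate 2, and its groups overlapped.

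Among the regulators, the INSIG genes moved in opposite directions. INSIG1, itself a gene that SREBPs are known to switch on, had intensities of 649, 616 and 619 in shPKCi arrays, against 334, 352 and 328 in shNT arrays. It rose by 0.89 (SE 0.09, adjusted p = 0.000186), a fold of 1.86. INSIG2 had intensities of 121, 111 and 105 in shPKCi arrays, against 253, 240.2 and 262 in shNT arrays. It fell by 1.16 (SE 0.10, adjusted p = 5.95e-05), a fold of 2.24, and was the 1 member that fell. In each gene the groups lay far apart for their spread, and both calls were kept in each of 15 alternative fits.

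The transcripts of the SREBPs and of SCAP did not pass. SREBF1 had intensities of 108, 114 and 126 in shPKCi arrays, against 100.01, 92.6 and 87.8 in shNT arrays. Its groups did not overlap, with a log2 difference of 0.31 (SE 0.10, adjusted p = 0.0667). It passed in 5 of 15 alternative fits, with adjusted p between 0.0281 and 0.0442. SREBF2 had intensities of 144, 167 and 166 in shPKCi arrays, against 171, 197 and 184 in shNT arrays. Every shPKCi array of SREBF2 was below every shNT array by a small margin, with a log2 difference of -0.21 (SE 0.11, adjusted p = 0.225). SCAP had intensities of 114, 124 and 133 in shPKCi arrays, against 129, 153 and 145 in shNT arrays, with overlap and a log2 difference of -0.21 (SE 0.11, adjusted p = 0.242). STARD4, which encodes a cytosolic sterol carrier, gave a log2 difference of -0.08 (adjusted p = 0.613). SREBPs act after cleavage of the protein, which arrays do not measure.

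**Figure D3:**
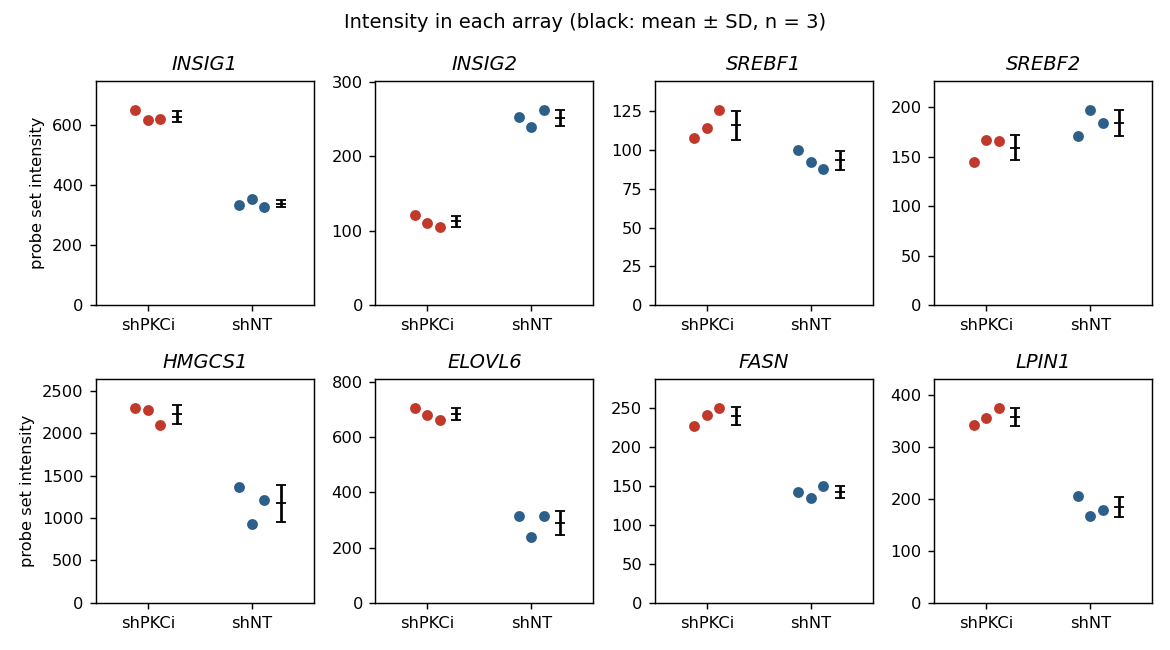
Probe set intensity (y axis, linear, from 0) in each shPKCi and shNT array for 8 members, with the mean and SD of the 3 arrays in black. INSIG1 is higher and INSIG2 lower in all shPKCi arrays, while SREBF1 and SREBF2 lie closer together between the groups. Each panel has its own scale, and levels are not to be compared between genes.

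Promoter windows from RefSeq (GRCh38.p14), from 250 bases before to 50 after an annotated start, were given for 29 of the 33 genes. The letters TCACNCCAC, a form of the sterol regulatory element that SREBPs bind, were searched on both strands, as were CCAAT for NF-Y and GGGCGG for Sp1, factors known to act beside SREBPs. Only SREBF2 of the 29, or 3.45%, held TCACNCCAC, against 1.51% of the 14230 genes with both a window and an array value. The SREBF2 match also fitted a stricter form with all letters fixed and 1 base more. Of the 29, 28 had an array value. HSD17B7, which had none, is counted in the member shares here and holds both CCAAT and GGGCGG. In the first listed window of each gene, CCAAT was found in 18 of 29 members, or 62.1%, against 36.3% of those 14230 genes. GGGCGG was found in 27 of 29, or 93.1%, against 60.0%. Among members with a value and a window, CCAAT was found in that first window in 5 of 11 that rose and in 12 of 16 that did not pass. This contrast depends on the window counted, since IDI1, ACACA and FADS2, which rose, held CCAAT only in another listed window. Over any listed window, as TCACNCCAC was counted above, CCAAT was found in 21 of 29 members, or 72.4%, against 42.2%. The letters CACGTG, an E-box, were found in the first listed window of 4 of 29 members, or 13.8%, against 8.88%. A match says only that the letters are there.

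The 250 bases before the start are shown for SREBF2, which holds the element, for the INSIG genes, which moved in opposite directions, and for HMGCS1 and ELOVL6, the genes with the largest rise in the mevalonate and fatty acid steps. They read 5′ to 3′ along the gene, with the fixed letters of TCACNCCAC, and those of CCAAT and GGGCGG, in capitals on either strand. SREBF2 is at chr22:41832855-41833104 (plus strand), INSIG1 at chr7:155297628-155297877 (plus), INSIG2 at chr2:118088221-118088470 (plus, first of 2 listed windows), HMGCS1 at chr5:43313413-43313662 (minus, first of 2) and ELOVL6 at chr4:110198616-110198865 (minus).
SREBF2: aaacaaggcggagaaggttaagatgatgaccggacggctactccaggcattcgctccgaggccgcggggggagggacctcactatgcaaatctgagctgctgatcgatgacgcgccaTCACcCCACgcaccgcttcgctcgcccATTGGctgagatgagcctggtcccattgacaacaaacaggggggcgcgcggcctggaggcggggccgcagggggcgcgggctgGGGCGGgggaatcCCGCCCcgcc
INSIG1: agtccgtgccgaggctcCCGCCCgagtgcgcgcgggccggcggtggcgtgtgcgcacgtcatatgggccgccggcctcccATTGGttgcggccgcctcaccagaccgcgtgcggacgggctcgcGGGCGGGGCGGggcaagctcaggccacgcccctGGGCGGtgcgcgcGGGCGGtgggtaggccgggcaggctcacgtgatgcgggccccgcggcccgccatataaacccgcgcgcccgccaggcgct
INSIG2: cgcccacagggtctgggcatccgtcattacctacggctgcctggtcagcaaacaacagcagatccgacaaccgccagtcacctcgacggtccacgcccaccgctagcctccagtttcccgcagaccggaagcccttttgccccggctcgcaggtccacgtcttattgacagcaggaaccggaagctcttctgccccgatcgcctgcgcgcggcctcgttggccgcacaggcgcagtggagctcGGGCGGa
HMGCS1: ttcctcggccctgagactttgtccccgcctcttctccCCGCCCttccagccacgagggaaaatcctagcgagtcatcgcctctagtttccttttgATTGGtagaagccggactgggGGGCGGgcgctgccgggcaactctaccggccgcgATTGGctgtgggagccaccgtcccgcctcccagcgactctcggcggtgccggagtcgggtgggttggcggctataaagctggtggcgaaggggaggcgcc
ELOVL6: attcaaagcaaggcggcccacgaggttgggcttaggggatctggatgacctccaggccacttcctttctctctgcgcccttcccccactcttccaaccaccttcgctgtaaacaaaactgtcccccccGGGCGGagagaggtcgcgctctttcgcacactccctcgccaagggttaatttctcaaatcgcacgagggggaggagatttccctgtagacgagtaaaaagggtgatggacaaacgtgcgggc
SREBF2 holds 1 sterol regulatory element, 1 CCAAT and 2 GGGCGG, and its transcript did not pass. INSIG1 holds 1 CCAAT and 5 GGGCGG, a pair of which overlap, and INSIG2 holds no CCAAT and 1 GGGCGG. HMGCS1 holds 2 CCAAT and 2 GGGCGG, and ELOVL6, which rose most of the members, holds no CCAAT and 1 GGGCGG.

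Relatives of several members were set against them within each array, with 9 pairs of genes chosen after their values were seen. The log2 ratio of INSIG1 to INSIG2 was higher by 2.06 (SE 0.08) in shPKCi than in shNT. The ratio of SCD to SCD5, the other stearoyl-CoA desaturase gene, was higher by 1.28 (SE 0.27), as SCD5 fell by 0.95 (adjusted p = 0.00101). The ratio of LPIN1 was higher by 1.13 (SE 0.16) against LPIN2 and by 1.04 (SE 0.11) against LPIN3, whose own log2 differences of -0.16 and -0.07 did not pass. The ratio of ELOVL6 to ELOVL5, an elongase gene of polyunsaturated fatty acids, was higher by 1.10 (SE 0.09).

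Smaller changes were seen in the other pairs. The ratio of FADS2 to FADS3, which fell by 0.47 (adjusted p = 0.0136, but 0.0665 without shPKCi replicate 1 and 0.0564 without shPKCi replicate 2), was higher by 0.80 (SE 0.09), and that of FADS2 to FADS1 by 0.20 (SE 0.06). The ratio of ACACA to ACACB, the carboxylase gene of the mitochondrial surface, was higher by 0.65 (SE 0.12), and that of SREBF1 to SREBF2 by 0.52 (SE 0.11). ACACB was dim, at the 24.7th percentile of signal, and its own log2 difference of -0.29 did not pass (limma adjusted p = 0.141). In each of the 9 pairs the 3 shPKCi ratios lay above the 3 shNT ratios. A two-sided exact permutation test gave p = 0.1 for each pair, the smallest that 3 arrays against 3 allow, and 0.1 after adjustment over the 9. Since the pairs were chosen after their values were seen, this separation and these p-values are a description and give no support. How often other gene pairs separate in this way was not counted.

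Other genes of the pathways were read from the same fit. Over all genes 9.55% rose and 8.95% fell, or 16.6% and 13.3% of those above the median signal. The counts of each further list stand beside these shares as a description and were not tested. Of 2 further sterol synthesis genes measured, LBR, which encodes a nuclear membrane protein with sterol reductase activity, rose by 0.56 (adjusted p = 0.00235), and ERG28 gave a log2 difference of 0.32 (adjusted p = 0.0893). Of 28 other fatty acid and glycerolipid synthesis genes measured, 4 rose and 2 fell, with a median of -0.03, against 0.37 in the fatty acid steps above and -0.02 in all genes. ME1, the cytosolic malic enzyme gene that supplies NADPH, rose by 0.90 (adjusted p = 0.00321), and GPAM, the first acyltransferase gene of glycerolipid synthesis, by 0.89 (adjusted p = 0.00163). The activating enzyme gene ACSL4 rose by 0.54 and the elongase gene ELOVL1, which was outside the rule for named genes and chosen after its value was seen, by 0.44. ACSL4 lost its call without shPKCi replicate 2 (adjusted p = 0.0522), and ELOVL1 without shNT replicate 3 or any shPKCi array, with adjusted p up to 0.0901.

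Of 11 measured genes of fatty acid oxidation, which breaks these chains down in mitochondria, none rose and 4 fell, with a median log2 fold change of -0.25. Over all genes 9.55% rose and 8.95% fell. The thiolase gene ACAA2 fell by 0.77 (adjusted p = 0.00131), the dehydrogenase gene ACADVL by 0.61 (0.00334), the carnitine acyltransferase gene CPT1A by 0.49 (0.00777) and the trifunctional protein subunit gene HADHB by 0.57 (0.0295). The call of HADHB was kept without shNT replicate 2 and lost without each of the other 5 arrays, with adjusted p up to 0.105 without shNT replicate 1. The enzyme of CPT1A controls the entry of fatty acids into mitochondria.

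Genes of sterol uptake, movement and storage went both ways. Of 9 measured, LRP8, a lipoprotein receptor gene, rose by 0.58 (adjusted p = 0.00586) and the sterol acyltransferase gene SOAT1 by 0.45 (adjusted p = 0.0133). VLDLR, another receptor gene of that family, fell by 1.70 (adjusted p = 1.19e-05), and NPC2, which encodes a lysosomal sterol carrier, fell by 0.72 (adjusted p = 0.00149). The median of these 9 was 0.08. Over all genes 9.55% rose and 8.95% fell, and neither this list nor the next was tested against those shares. Of 5 measured genes of LXR signalling and sterol efflux, the transporter gene ABCA1 rose by 0.36 (adjusted p = 0.0476) and the apolipoprotein gene APOE fell by 0.55 (adjusted p = 0.00648), with a median of -0.02. The call of ABCA1 was kept without shNT replicate 2 (adjusted p = 0.00468) and lost without each of the other 5 arrays, with adjusted p up to 0.146 without shNT replicate 3. SOAT1 did not pass without shPKCi replicate 2 (0.0528) or 3 (0.0529).

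**Figure D4:**
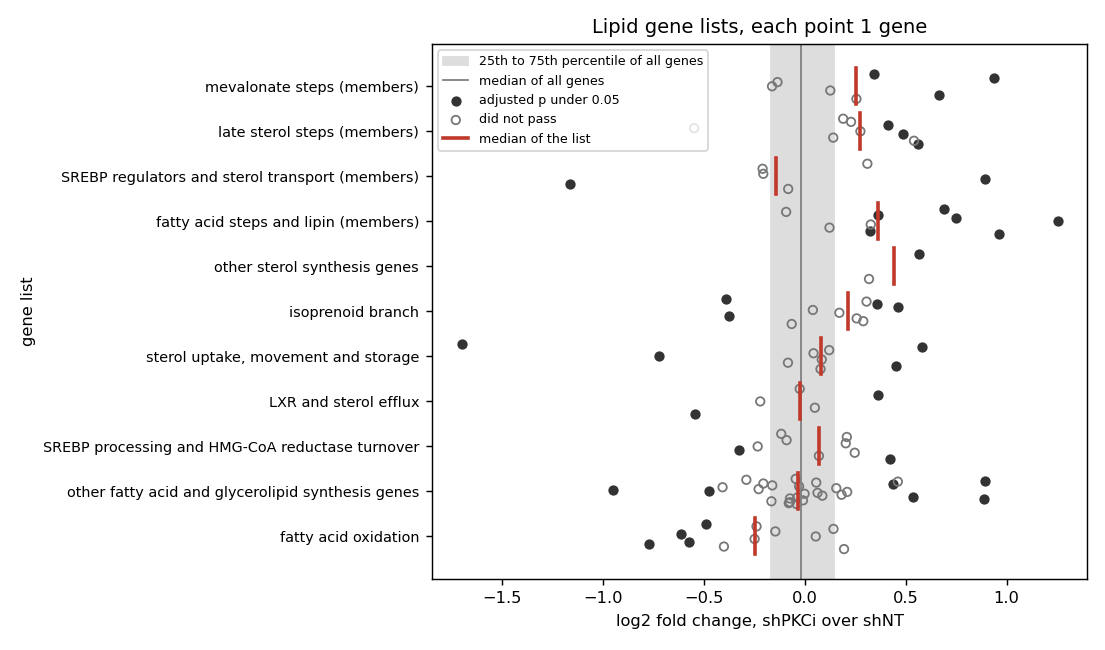
Log2 fold change of shPKCi over shNT (x axis) for each measured gene of 11 lipid gene lists (y axis), with filled points for an adjusted p under 0.05, red bars for the median of each list and the grey band for the 25th to 75th percentile of all genes. The medians of the mevalonate, late sterol and fatty acid steps, at 0.26, 0.28 and 0.37, lie right of the band, and that of fatty acid oxidation, at -0.25, lies left of it.

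Relative to the mean of the 6 arrays, the mean of the 9 fatty acid and lipin genes was 0.24 to 0.30 in shPKCi arrays, against -0.30 to -0.22 in shNT arrays. The mean of the 7 mevalonate genes was 0.12 to 0.18 in shPKCi arrays, against -0.19 to -0.12 in shNT arrays. The mean of the 9 late sterol genes was 0.10 to 0.14 in shPKCi arrays, against -0.17 to -0.08 in shNT arrays. The mean of the 6 regulator and transport genes lay within 0.08 of 0 in every array. That mean holds INSIG1 and INSIG2, whose changes of 0.89 and -1.16 offset each other, so it does not show unchanged genes. Whether the step groups differ from each other was not tested. The fitted changes ranged from -0.16 to 0.94 in the mevalonate steps, from -0.55 to 0.56 in the late sterol steps and from -0.09 to 1.25 in the fatty acid steps.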

How the data were processed

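The authors deposited 1 linear intensity per array for each of 32321 probe sets, made with RMA per the submitters' processing notes, with no version or build stated there. Intensities were transformed to log2. The platform annotation given with the arrays gave 1 gene symbol to 19158 probe sets and several to 1388, while 11775 were unlisted. Where a gene had several probe sets (1 member, CYP51A1), the one of highest mean was used, and no filter on low values was applied.

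The 6 arrays entered 1 fit (lmFit and eBayes of limma 3.58.1, under R 4.3.3), with Benjamini-Hochberg adjustment over 18404 genes. Their number, 3 per group, limits the precision: the median SE of a log2 fold change was 0.11. Tested on 20 simulated data sets of this comparison with 18404 genes and 200 changed ones, the fit called 45.8% of changes of 0.5 and 99.7% of changes of 1 on the log2 scale, and 5.86% of calls were false. The arrays themselves gave far more calls, 1758 higher and 1648 lower. The cutoff set by the adjustment depends on the share of changed genes, so these rates need not hold for the arrays.

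Members, lists, pairs and motifs were chosen with earlier results of these data known. Every measured member was named. Values in each array were given for members that passed with a change of at least 0.5 and for the SREBP regulators, with further examples chosen after their values were seen. Up to 4 genes with the smallest adjusted p were named from each further list, with exceptions stated. Results were recomputed with a replicate block, without each array, and with array centring, cyclic loess, signal filters, probe set choices, a trended robust variance, array weights and a stricter threshold. A count of members above the median signal was added after the data were seen. Coordinates are given only for the RefSeq promoter windows, on their own build, since none was named for the arrays.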

Additional observations from a re-analysis of the deposited data

How the results depend on the processing

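Of the 14 members that rose or fell, 9 kept the call in all of 15 alternative fits, and ACAT2, ACACA, FADS2, CYP51A1 and NSDHL lost it in at least 1. Of the 17 that did not pass, SC5D passed in 8 alternative fits, SREBF1 in 5, and LSS and TM7SF2 in 2 each. No called change turned its direction. At a threshold of 0.01, 8 members rose. The late sterol steps had 5 rises and a median of 0.41 with array weights. The regulators had 2 rises, not 1, with array centring, cyclic loess, either signal filter or array weights. With 1 array left out, members that rose numbered 9 to 13 and members that fell 1 to 2, late sterol genes that fell 0 to 1, and all genes 997 to 1935 higher and 1048 to 1959 lower. Array centring gave 2170 genes higher and 1321 lower and moved all log2 fold changes by 0.06. Deviations of same-numbered arrays correlated at 0.12, -0.06 and -0.18. Whether the replicate numbers pair the samples cannot be decided from so few correlations, which were not set beside those of other-numbered arrays. With the replicate block, 11 members rose and 2 fell, 1 of them in the late sterol steps. The share of genes with the sterol regulatory element letters was 0.0703% with the strict letters and 1.19% before the start only, and that of the members was the same under both. The cause of these changes was not tested. Dim genes such as MVK and PMVK cannot be told from background, since no detection calls were used.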

Other observations

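Genes that use the isoprenoid units of the mevalonate steps went both ways. Of 10 measured genes of that branch, NUS1, a subunit gene of dolichol synthesis, rose by 0.36 (adjusted p = 0.027), and PDSS1, which makes the side chain of coenzyme Q, by 0.46 (adjusted p = 0.0181). GGPS1, the geranylgeranyl diphosphate synthase gene, fell by 0.39 (adjusted p = 0.0297), and FNTA, a subunit gene of the protein prenyltransferases, fell by 0.38 (adjusted p = 0.0167). The median of the 10 was 0.21. Over all genes 9.55% rose and 8.95% fell, and neither this list nor the next was tested against those shares. Each of these 4 calls was kept without shNT replicate 2 and lost without 3 to 5 of the other arrays, with adjusted p up to 0.123 for NUS1, 0.0792 for PDSS1, 0.0995 for GGPS1 and 0.0674 for FNTA. Of 9 measured genes of SREBP processing and HMG-CoA reductase turnover, SAR1B, a coat protein gene of vesicles that leave the endoplasmic reticulum, rose by 0.42 (adjusted p = 0.0391), and ERLIN2, which encodes a membrane scaffold of reductase turnover, fell by 0.33 (adjusted p = 0.0381). Those 2 calls were kept without shNT replicate 2 and lost without 4 and 5 of the other arrays, with adjusted p up to 0.117 for SAR1B and 0.155 for ERLIN2. The protease genes that cleave SREBPs did not pass, with log2 fold changes of -0.12 for MBTPS1 and 0.21 for MBTPS2.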
